A study of Homo sapiens with 4 samples.

Results

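The S100 genes described here are 9 neighbouring paralogs on human chromosome 1: S100A2, S100A3, S100A4, S100A6, S100A10, S100A11, S100A13, S100A14 and S100A16. They were taken by symbol from the 61228 genes of each count table. They had been chosen because, between ACBI1 and DMSO, most of their transcripts were lower while others of the cluster stayed nearly level. Their difference between these groups is therefore given as a description: no p-value is given for a member, and the threshold of the fit over all genes only says where a member falls in it. RNA-seq had been made from H1792, an established human lung cancer line whose genotype is labelled WT. One group (2 libraries) received the solvent DMSO for 96 h, and the other (2 libraries) received ACBI1 for 96 h at a dose the labels write as 1 mM. ACBI1 is a PROTAC that brings the chromatin remodelling ATPases SMARCA2 and SMARCA4, and the subunit PBRM1, to a ubiquitin ligase for degradation. Proteins were not measured, so the transcript counts do not check the degradation.

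S100 proteins are small calcium sensors with a pair of EF-hand loops. Most of them form dimers, and calcium opens a surface on the dimer through which it grips other proteins, so they act by binding rather than as enzymes. Some also leave the cell and act on receptors such as AGER and TLR4. In epithelia several of them are known from wound repair, keratinocyte differentiation and carcinoma.

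Counts in genes ranged from 64281850 to 86010100 per library. The labels do not say whether the 2 libraries of a group came from separate cultures, so the spread between them may be technical. The keratins KRT8, KRT18 and KRT7 were abundant, but CDH1, the epithelial cadherin, had 4 to 16 counts per library, and the lung lineage factor NKX2-1 had 0 counts in each library. Summed over 6 epithelial markers, levels were 982 and 1035 CPM (counts scaled to library size) with DMSO and 323 and 202 CPM with ACBI1, and 4 of the 5 tested markers were called lower. KRT7 made up most of the DMSO sums, and EPCAM, the marker not called, had 5.38 and 2.78 CPM with DMSO and 15.6 and 4.84 CPM with ACBI1. All 5 fibroblast markers were present. Their summed levels were 347 and 764 CPM in DMSO replicates 1 and 2 and 64.8 and 217 CPM in ACBI1 replicates 1 and 2. COL1A1 made up most of these sums (324 and 693 CPM with DMSO, 62.3 and 210 CPM with ACBI1) and was not called (edgeR adjusted p 0.0860). DCN, LUM and PDGFRA, 3 of the 5, were called lower. Endothelial markers summed to 12.7 and 49.0 CPM with DMSO and to 0.123 and 0.107 CPM with ACBI1. PECAM1 was the main one under DMSO, and 2 of 3 tested, PECAM1 and VWF, were called lower. In the ACBI1 libraries PECAM1 had 1 and 3 counts, VWF 0 and 0, and the fibroblast marker DCN 4 and 7. These genes passed the filter on low counts through DMSO alone and could hardly be called other than lower. For all these lists, the share called lower over all genes tested was 10.6%. Immune markers stayed between 0.479 and 1.15 CPM in each library, with CD3E and MS4A1 at 0 counts. The part of these marker genes in the S100 differences was not tested. All libraries are labelled as the H1792 line, so these markers do not show that other cell types were present. In bulk RNA, fewer cells with a transcript and less of it per cell cannot be told apart.

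The sequences upstream of 4 members are shown because these members span the range of the responses. S100A3 had the largest fitted decrease and S100A11 the smallest among the members past the threshold. S100A16 was the abundant member with the largest decrease, and S100A2 shares with S100A3 a match to the AP-1 motif. Each runs 5′ to 3′ on the minus strand, as the genes do, and covers the part of the 250 bases before the RefSeq start that no annotated exon of GENCODE release 29 covers (both GRCh38). Capitals mark matches to TGANTCA (the AP-1 motif) or GGGCGG (the GC box). S100A2 and S100A16 have 2 RefSeq starts each, and the window of the first listed is printed. The window of the other S100A16 start, not printed, holds a GC box at -45 to -40.
S100A3, chr1:153549373-153549508: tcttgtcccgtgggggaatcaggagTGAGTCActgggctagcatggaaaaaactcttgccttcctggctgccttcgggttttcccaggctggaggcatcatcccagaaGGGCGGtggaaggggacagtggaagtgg
S100A2, chr1:153565866-153566094: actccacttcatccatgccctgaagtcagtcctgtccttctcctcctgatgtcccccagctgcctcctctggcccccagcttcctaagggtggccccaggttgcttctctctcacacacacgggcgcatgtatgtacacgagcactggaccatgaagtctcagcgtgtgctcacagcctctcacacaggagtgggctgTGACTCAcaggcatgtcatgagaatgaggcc
S100A16, chr1:153613146-153613387: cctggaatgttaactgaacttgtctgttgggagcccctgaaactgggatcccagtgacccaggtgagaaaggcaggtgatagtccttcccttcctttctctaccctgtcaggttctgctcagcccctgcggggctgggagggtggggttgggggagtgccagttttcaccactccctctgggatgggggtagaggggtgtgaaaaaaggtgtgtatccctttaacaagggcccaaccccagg
S100A11, chr1:152037036-152037254: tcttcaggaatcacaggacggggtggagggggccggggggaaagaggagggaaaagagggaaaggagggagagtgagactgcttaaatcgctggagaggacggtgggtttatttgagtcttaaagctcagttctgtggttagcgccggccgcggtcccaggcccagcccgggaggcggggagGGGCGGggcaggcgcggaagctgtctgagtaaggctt

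The members lie in a short and a long block on chromosome 1, all on the minus strand. S100A10 (chr1:151982915-151994390) and S100A11 (chr1:152032506-152047907) form the first, and the other 7, from S100A6 (chr1:153534599-153536244) to S100A13 (chr1:153618787-153631360), fill 96.8 kb after a gap of 1.49 Mb. The gap holds the genes of the epidermal cornified envelope. S100A3 (chr1:153547329-153549372) lies within the span of S100A4 (chr1:153543613-153550136), but no exon of the one overlaps an exon of the other. Of the exonic length of S100A13, 33.5% is shared with other genes, S100A1 on the other strand among them, so its counts carry some uncertainty. For S100A6 this share was 2.37%, and for the other 7 members it was 0.

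The 9 members covered a wide range of abundance, compared here as CPM per kilobase of exon. With DMSO, S100A6 was at 303 and 416 CPM per kb in replicates 1 and 2 and S100A11 at 320 and 332, so that their order differed between the libraries. S100A16 followed at 94.8 and 88.8 CPM per kb and S100A10 at 48.9 and 80.5. The other 5 were far lower, from S100A4 (1.07 and 7.27 CPM per kb) and S100A13 (3.05 and 3.54) through S100A3 (0.566 and 1.79) and S100A2 (0.690 and 1.22), whose ranges overlapped, to S100A14 (0.115 and 0.218). With ACBI1 the order at the top differed. S100A11 led in both libraries (175 and 199 CPM per kb), ahead of S100A6 (95.3 and 159), and S100A10 (38.1 and 66.7) stood above S100A16 (17.9 and 16.8). The order of S100A6 and S100A11 depended on the exonic lengths used (971 and 680 bases). In plain CPM, S100A6 was above S100A11 in both DMSO libraries (294 and 404 against 217 and 226). With ACBI1 it was below S100A11 in replicate 1 (92.5 against 119) and above it in replicate 2 (154 against 136).

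**Figure D1:**
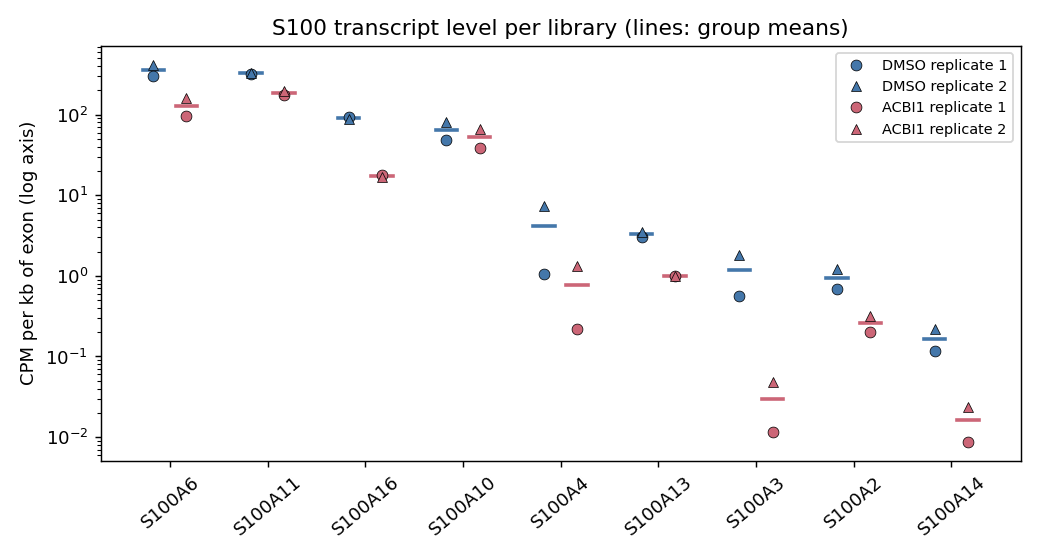
Level of each S100 member in CPM per kb of exon (vertical log axis) in the 4 libraries, ordered by the DMSO mean. Circles are replicate 1, triangles replicate 2 and short lines group means. The groups do not overlap for 7 members and overlap for S100A4 and S100A10.

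All 9 members passed the filter on low counts and were part of an edgeR fit over 19159 genes. S100A3 and S100A14, with 1 to 3 counts per ACBI1 library, passed it through their DMSO libraries alone. At such counts a member could hardly be called other than lower. Of the 9 members, 7 were past the threshold (adjusted p under 0.05) as lower with ACBI1 and 0 as higher. Over all genes tested 17.4% were called, 10.6% as lower and 6.75% as higher. Both ACBI1 libraries lay below both DMSO libraries for the same 7 members, an order that 32.2% of all tested genes also had, and the opposite order, held by 31.1% of them, occurred for 0 members. Since the members were chosen on this contrast, nothing is read from these counts. The median log2 change was -1.88 over the members and 0.01 over all genes. The threshold was met by 8 members without DMSO replicate 1 and by 5 without DMSO replicate 2 (S100A3, S100A6, S100A11, S100A13 and S100A16). It was met by 4 without ACBI1 replicate 2 (the same ones except S100A11) and by S100A16 alone without ACBI1 replicate 1, where calls over all genes fell from 3331 to 1379.

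Among the abundant members, S100A16, a widely expressed S100 protein, was at 161 and 151 CPM with DMSO and at 30.4 and 28.6 CPM with ACBI1. The libraries of each group were close together and the groups far apart. The decrease was 5.29-fold, a log2 change of -2.40 (SE 0.16), and stayed between -2.45 and -2.35 when any single library was left out. S100A6, or calcyclin, had 294 and 404 CPM with DMSO against 92.5 and 154 CPM with ACBI1, and replicate 2 was the higher library in both groups. Its log2 change was -1.50 (SE 0.30), or 2.83-fold lower.

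S100A11, which binds annexin A1, was at 217 and 226 CPM with DMSO and at 119 and 136 CPM with ACBI1. This was the smallest change among the 7 members past the threshold, with a log2 change of -0.80 (SE 0.16), a decrease of 1.74-fold. S100A10, the annexin A2 partner, which does not respond to calcium, had 75.5 and 124 CPM with DMSO and 58.8 and 103 CPM with ACBI1. Its groups overlapped, since ACBI1 replicate 2 lay above DMSO replicate 1. The log2 change of S100A10 was -0.30 (SE 0.34), short of the threshold. It was 0.10 without DMSO replicate 2 and 0.05 without ACBI1 replicate 1, so that not even its direction held.

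The members of the middle of the long block were scarce. S100A4, which binds non-muscle myosin and is also used as a fibroblast marker, had 1.09 and 7.45 CPM with DMSO and 0.223 and 1.37 CPM with ACBI1. ACBI1 replicate 2 lay above DMSO replicate 1, so the groups overlapped, and S100A4 was short of the threshold with a log2 change of -2.44 (SE 1.10). That value was -0.48 without DMSO replicate 2 and -4.26 without ACBI1 replicate 2, and S100A4 was past the threshold without DMSO replicate 1 (-3.24). Between the libraries of a group it differed 6.82-fold with DMSO and 6.14-fold with ACBI1, more than any other member. The summed fibroblast markers were also higher in replicate 2 of each group (values above), and their part in this spread was not tested.

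S100A3, a member rich in cysteine known from the hair cuticle, had 44 and 123 counts with DMSO and 1 and 3 counts with ACBI1. Scaled for library size, DMSO stood 42.2 times above ACBI1 (95% exact counting bounds 16.2 and 157). Its fitted log2 change was -5.33 (SE 0.91), the most negative of the 9, and ranged from -6.47 (ACBI1 replicate 2 left out) to -4.28 (DMSO replicate 2 left out). Within the DMSO group, S100A3 was at 0.540 and 1.71 CPM.

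S100A2, a protein of basal epithelia that binds p53, was at 1.08 and 1.90 CPM with DMSO and at 0.313 and 0.503 CPM with ACBI1. In CPM, though not on the log2 scale, the groups stood apart by less than the gap inside the DMSO group. The log2 change was -1.88 (SE 0.48), or 3.67-fold lower. Among 6 basal and squamous markers, KRT5, KRT14, KRT6A and KRT6B had 0 counts in each library. TP63, which encodes the basal factor p63, fell from 1.49 ± 0.303 to 0.192 ± 0.0128 CPM (SD, n = 2), with an edgeR adjusted p of 0.00932. The other tested marker of this list, the desmosomal cadherin DSG3, was higher in both ACBI1 libraries (13 and 15 counts) than in both DMSO libraries (5 and 9) and was not called. A count of 0 allows up to 0.0335 to 0.0458 CPM, depending on the library.

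S100A13, which takes part in the release of FGF1 and IL1A from cells, was at 6.77 and 7.84 CPM with DMSO and at 2.20 and 2.21 CPM with ACBI1. Both groups were tight, and the log2 change was -1.73 (SE 0.28), or 3.31-fold lower. S100A14, a divergent member with weak calcium binding, was barely present, with 12 and 20 counts under DMSO and 1 and 2 under ACBI1. DMSO stood 10.8 times above ACBI1 (95% exact counting bounds 3.37 and 55.0). The fitted log2 change of S100A14 was -3.33 (SE 0.79), and DESeq2 did not call it, unlike the other 6 members past the threshold. Its log2 change was -4.08 if ACBI1 replicate 2 was left out and -2.72 if ACBI1 replicate 1 was.

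Summed over the 9 members, the level was 758 and 924 CPM with DMSO and 304 and 425 CPM with ACBI1. S100A6, S100A11 and S100A16 together made up 88.8% and 84.5% of that sum with DMSO and 79.7% and 74.8% with ACBI1. The share of S100A16 went from 21.3% and 16.3% to 10.0% and 6.72%, while that of S100A10 went from 9.96% and 13.4% to 19.4% and 24.2%. The level of S100A10 itself was not higher with ACBI1 (99.8 ± 34.4 CPM with DMSO, 80.9 ± 31.2 with ACBI1; SD, n = 2), so its larger share came with the lower levels of the others. These shares come from the values that chose the members.

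Along the chromosome, the members of the first block had the changes nearest to 0 (S100A10 and S100A11), and those of the second block had log2 changes from -1.50 to -5.33. S100A4 in the second block, short of the threshold, broke this order when DMSO replicate 2 was dropped (-0.48, against -0.77 for S100A11). S100A6 was then at -1.26, and at -1.17 when ACBI1 replicate 1 was dropped. The tested coding genes on the outer flanks of the blocks were not called. CHTOP, beyond S100A1, had 66.9 ± 5.29 CPM in the DMSO group and 76.1 ± 2.60 CPM in the ACBI1 group (SD, n = 2; log2 change 0.19, edgeR adjusted p 0.441). ILF2, SNAPIN and NPR1 further out had log2 changes of 0.16, -0.26 and 0.63 (edgeR adjusted p 0.617, 0.353 and 0.558), and THEM4, before S100A10, one of -0.25 (adjusted p 0.535). ENSG00000272030, classed as antisense but on the same strand as S100A13, lies just beyond the GENCODE span of S100A13. It had 34 and 18 counts with DMSO and 8 and 7 with ACBI1, and was not called (log2 change -1.77, edgeR adjusted p 0.0735). The first RefSeq start of S100A13 lies inside ENSG00000272030, so the reads of these genes may not be told apart. Inside the block, the long intergenic RNA gene between S100A2 and S100A16, listed only by its Ensembl identifier ENSG00000285867, had 135 and 61 counts with DMSO and 19 and 15 with ACBI1. It lies on the same strand as S100A16, just beyond the 3′ end of that gene. Whether its reads are separate from those of the far more abundant S100A16 (log2 change -2.40) was not tested. ENSG00000285867 fell by 2.50 on the log2 scale (edgeR adjusted p 0.0231). It lost the call without ACBI1 replicate 1 (adjusted p 0.0878) and without ACBI1 replicate 2 (adjusted p 0.0633).

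**Figure D2:**
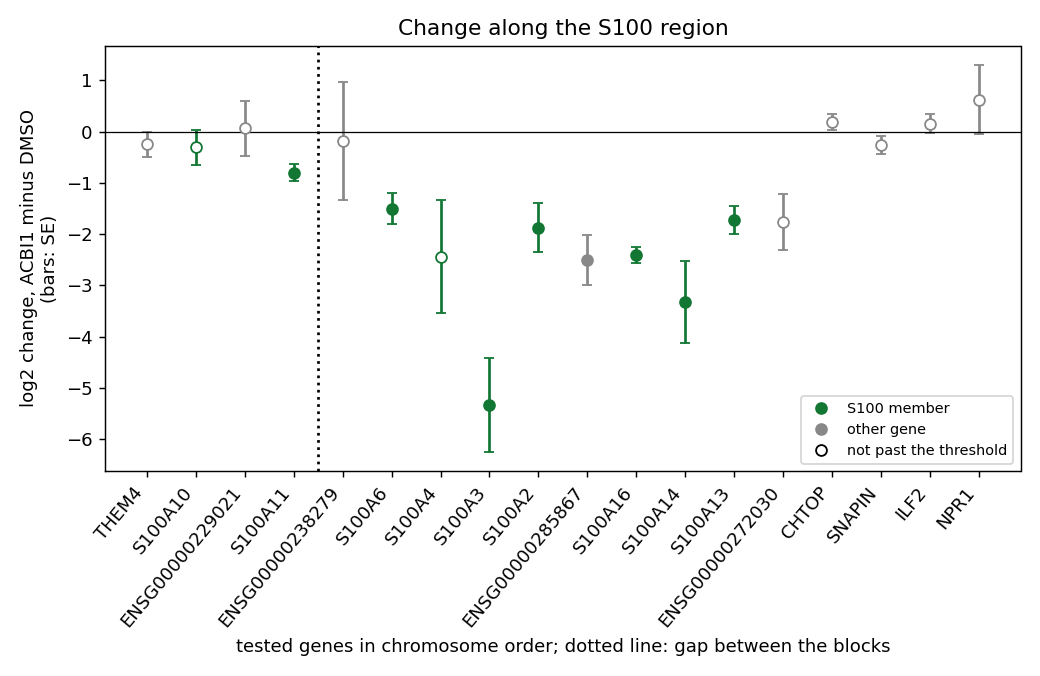
Fitted log2 change (ACBI1 minus DMSO, bars are SE) of the tested genes of the region in chromosome order. S100 members are green, other genes grey, and open symbols are not past the threshold. The members right of the dotted line sit between -1.50 and -5.33, and the coding genes at both ends lie near 0, except for NPR1 at 0.63 with a wide error bar.

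Of the 12 S100 genes outside the set, none was abundant enough for the test. S100A5, which lies between S100A6 and S100A4, had 10 counts in each DMSO library and 0 in each ACBI1 library, at least 6.74-fold lower when the floor of 3 counts is set over the group. S100A1, whose exons overlap those of S100A13 on the other strand, had 10 and 6 counts with DMSO and 3 and 2 with ACBI1. S100A9, a subunit of the neutrophil protein calprotectin, had 0 and 16 counts with DMSO and 5 and 0 with ACBI1, and its partner S100A8 had 0 in each library. No direction can be drawn for S100A9. Among 37 genes listed from the gap, mostly of the cornified envelope, 1 could be tested. SPRR2D, a small proline-rich protein of the envelope, had 60 and 50 counts with DMSO and 0 with ACBI1, at least 37.1-fold lower (edgeR adjusted p 0.00688). Of 7 fused-type S100 genes, long proteins that begin with an S100 domain, HRNR alone was tested, with 5 and 6 counts against 13 and 13, and was not called (edgeR adjusted p 0.195).

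The RefSeq table (GRCh38.p14) gave 13 starts for the 9 members, with 250 bases before each. In the windows of S100A10 and S100A6 there were 24 CG pairs each, and S100A11 had 15. The S100A10 and S100A6 windows lie wholly in exons that GENCODE 29 gives these genes, so their CG pairs and GC boxes are in annotated transcribed sequence. The windows of the second S100A2 start and the third S100A13 start (3 and 8 CG pairs) also lie wholly in annotated exons. The remaining windows do so in part, except that of the second S100A16 start. S100A13 had 8 to 15 depending on the start. S100A4 had 7, S100A3, S100A2 and S100A14 had at most 4, and S100A16 had 1 and 6, where the median over all promoters was 11. Thus the 4 members with 8 or more CG pairs had log2 changes of -0.30, -0.80, -1.50 and -1.73, and the 5 members with 7 or fewer had changes from -1.88 to -5.33. This order was noticed, and the cut between 7 and 8 CG pairs set, after the values were seen, and neither has a test. The cut is not the median of 11, and S100A13 has starts on both sides of that median. The order rests on S100A2 (-1.88, SE 0.48) against S100A13 (-1.73, SE 0.28) and on S100A4, which was short of the threshold. Dropping DMSO replicate 2 broke it, with S100A4 at -0.48 and S100A2 at -1.42 against S100A13 at -1.62, and so did dropping ACBI1 replicate 1, with S100A2 at -1.55 and S100A13 at -1.71. No check over all genes was made. By symbol 64.5% of the tested genes matched the promoter table, under the minimum of 80% set for such a check.

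Of the motifs searched on both strands of these windows, TGANTCA was found in 2 of 13, before S100A3 and S100A2 as printed above. It was held by 6.57% of 35116 promoters. The GC box GGGCGG was in 6 of the 13 windows, each of a different member (for S100A16 that of its second start), and in 42.6% of promoters. TATAAA was in 2 windows, before S100A4 and at the second start of S100A13 (10.7% of promoters). GGAATG, bound by TEAD factors, was in 1 window, before S100A16 (11.9%). Neither of a pair of NF-kB motif forms was found before a member, and 1.40% and 1.58% of promoters held them. CACGTG was not found either (6.34%). In the member windows no match overlapped one of another motif, but a pair of GC boxes before S100A6 share bases. These are matches of letters within a window, not binding sites.

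Annexins are membrane-binding partners of several S100 proteins. Of 9 tested annexins 1 was called lower and 0 higher, near the 10.6% and 6.75% over all genes, with a median log2 change of -0.48 (0.01 over all genes). ANXA2, the partner of S100A10, was at 568 and 679 CPM with DMSO and 393 and 491 CPM with ACBI1, a log2 change of -0.50 (SE 0.20, edgeR adjusted p 0.143). ANXA1, the partner of S100A11, had a log2 change of 0.21 (SE 0.23, adjusted p 0.572), and ANXA11, bound by S100A6, one of 0.03 (SE 0.19, adjusted p 0.923). ANXA10 was the lower call, at 18.8 ± 1.47 CPM under DMSO and 5.59 ± 2.33 CPM under ACBI1 (SD, n = 2; fitted log2 change -1.75, adjusted p 0.0201).

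Of 16 tested intracellular partners, 4 were called lower and 2 higher (10.6% and 6.75% over all genes), and the median was -0.29. FGF1, the growth factor exported with S100A13, had 70 and 135 counts with DMSO and 1 and 2 with ACBI1, which puts DMSO 69.1 times above ACBI1 (95% exact counting bounds 23.3 and 338; fitted log2 change -6.01, edgeR adjusted p 0.00698). DLC1, a GTPase-activating protein bound by S100A10, fell from 60.0 and 44.4 CPM to 29.6 and 23.9 CPM (log2 change -0.96, adjusted p 0.0310). The other two lower calls were PPFIBP1, a liprin bound by S100A4 (log2 change -0.80, adjusted p 0.0231), and MYH9, the myosin heavy chain bound by S100A4 (log2 change -0.72, adjusted p 0.0479). The adaptor CACYBP, named for binding S100A6, rose from 69.3 ± 3.51 to 111 ± 5.65 CPM (SD, n = 2; log2 change 0.67, adjusted p 0.0330). HLTF, a DNA translocase bound by S100A10 with annexin A2, rose as well (log2 change 0.70, adjusted p 0.0300). AHNAK, the large scaffold bound by the same complex, was at 388 and 544 CPM with DMSO and 474 and 694 CPM with ACBI1, and its groups overlapped (log2 change 0.33, adjusted p 0.438).

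Receptors that released S100 proteins bind all had negative log2 changes, from -0.47 to -3.53, and 2 of 7 were called lower (10.6% over all genes). TLR4 fell from 25.3 and 37.5 CPM to 3.02 and 2.41 CPM, a log2 change of -3.53 (SE 0.28, edgeR adjusted p 0.00243). AGER, the receptor for advanced glycation end products, fell from 4.21 and 3.36 to 1.50 and 1.46 CPM, a log2 change of -1.35 (SE 0.31, adjusted p 0.0351).

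In the plasminogen system, which S100A10 helps to assemble at the cell surface, 5 of 6 tested genes were called lower (10.6% over all genes) and the median was -2.80. The urokinase receptor PLAUR fell from 87.9 and 63.7 CPM to 8.60 and 6.06 CPM (log2 change -3.37, SE 0.27, edgeR adjusted p 0.00234). The protease inhibitor SERPINE2 fell by 2.24 on the log2 scale (adjusted p 0.00231), and urokinase, PLAU, fell by 1.72 (adjusted p 0.00453). PLAT, the tissue activator, was at 56.2 and 659 CPM with DMSO, and at 3.56 and 5.98 CPM with ACBI1. The DMSO libraries were far apart, and the log2 change was -6.23 (adjusted p 0.0220) over the 4 libraries and -3.57 once DMSO replicate 2 was dropped. PLAT was not called without ACBI1 replicate 1 (adjusted p 0.0566).

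EF-hand proteins outside the S100 family had a median log2 change of -0.25 over 21 tested genes, of which 4 were called lower and 0 higher, against 10.6% and 6.75% over all genes. NUCB2, or nucleobindin, fell from 131 ± 17.9 to 29.1 ± 1.23 CPM (SD, n = 2; log2 change -2.17, edgeR adjusted p 0.00243). RCN1, a calcium binder of the endoplasmic reticulum, had a log2 change of -1.41 (adjusted p 0.00733), CHP1 one of -0.82 (adjusted p 0.0448) and the calmodulin gene CALM2 one of -0.74 (adjusted p 0.0403).

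Of the 18 calls in these 5 lists, 8 remained without ACBI1 replicate 1, 10 without ACBI1 replicate 2, 14 without DMSO replicate 2 and 15 without DMSO replicate 1, and all 18 kept their direction in each case. AGER, CACYBP, CALM2, CHP1, DLC1, HLTF, MYH9 and PPFIBP1 were lost without either ACBI1 library, and ANXA10 and PLAT without ACBI1 replicate 1 alone. Without DMSO replicate 2 the 4 lost were CACYBP, CALM2, CHP1 and HLTF, and without DMSO replicate 1 the 3 lost were AGER, HLTF and MYH9. The log2 change of FGF1 ranged from -6.76 (ACBI1 replicate 2 left out) to -5.35 (DMSO replicate 2 left out). Under scaling by library size only, CALM2, CHP1 and MYH9 were no longer called, and MYH9 was also lost under the newer edgeR fit (adjusted p 0.0534).

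**Figure D3:**
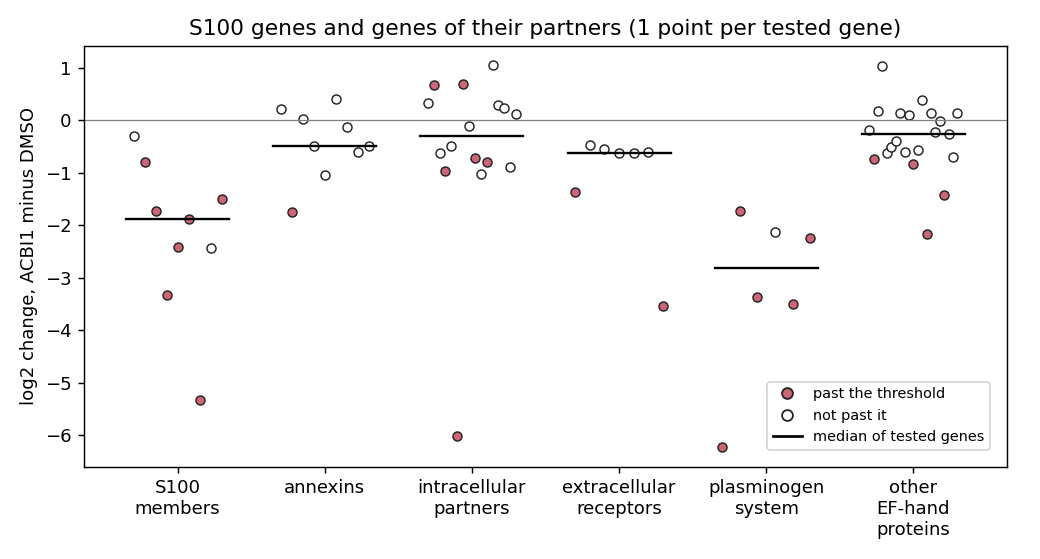
Fitted log2 change (ACBI1 minus DMSO, vertical axis) of each tested gene of the S100 set and of 5 lists of related genes, with black lines at the medians. Filled points are past the threshold. The medians are -1.88 for the S100 members, -2.80 for the plasminogen system and between -0.25 and -0.61 for the other lists.

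The genes most like the members at both ends of the range were found by the root mean square difference of log2 CPM (with 0.1 CPM added), centred on the DMSO mean, over the 4 libraries and among tested genes averaging 5 CPM or more. For S100A3 they were LFNG, a glycosyltransferase acting on Notch (difference 0.11), SCAT1 (0.17) and ST8SIA4, a polysialyltransferase (0.21). LFNG was at 39.3 and 110 CPM with DMSO and 5.95 and 7.92 CPM with ACBI1. The 0.1 CPM added exceeds both ACBI1 levels of S100A3 (0.0112 and 0.0458 CPM) and so shrinks its change on this scale. The fitted log2 change of S100A3 was -5.33, against -3.43 for LFNG, -3.20 for SCAT1 and -3.43 for ST8SIA4. For S100A10, the member with the highest log2 change, they were the stress factor gene DDIT3 (0.02), BNC2 (0.05) and SYT11 (0.05). DDIT3 was at 67.1 and 112 CPM with DMSO and 51.5 and 93.1 CPM with ACBI1. Over only 4 libraries such likeness is a description.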

How the data were processed

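The deposited counts are raw reads per gene symbol in 4 libraries, and the 5 lines for unassigned reads (13.9% to 15.4% of all reads listed) were left out. TopHat2 2.1.1, HTSeq 0.11.0 and hg38 are named in the submitters' processing notes. The annotation and strand setting are not given in the sources used here, so reads of overlapping genes can be misassigned or dropped. Genes were filtered with filterByExpr (minimum count 10, total 15) and TMM-scaled. Some genes passed this filter through a single group, such as S100A3, S100A14, FGF1, SPRR2D, DCN, PECAM1 and VWF through DMSO and HRNR and DSG3 through ACBI1. The test was the quasi-likelihood test of edgeR 4.0.16 under R 4.3.3 (glmQLFit with legacy=TRUE, glmQLFTest, two-sided, Benjamini-Hochberg over 19159 genes, threshold 0.05). The scripts were tested on simulated data. CPM are counts per 1000000 with TMM-scaled library sizes, and SE is the log2 change divided by the square root of F. Counting intervals are at 95% and, like floors of 3 counts, cover counting error only. With 2 libraries against 2, the smallest two-sided p of an exact permutation test is 0.333. Exonic lengths, positions and overlaps came from GENCODE 29, matched by symbol (9 of 9 members), and sequences from RefSeq (GRCh38.p14). Members and lists were chosen with earlier results of these data known. Named were all members, other S100 genes reaching 10 counts, called list genes (at most 6 a list) with 6 fixed partners, neighbours, and 3 genes most like each end of the range. Other scalings, filters, tests, a replicate block, a threshold of 0.01 and leaving out each library (the lone library is then assumed to vary like the rest) were tried. Some genes the rule would name are not reported here.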

Additional observations from a re-analysis of the deposited data

How the results depend on the processing

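Each of the 9 members kept a negative log2 change in every alternative fitted on all 4 libraries in which it was tested. Against 3331 genes called in the main analysis, 5518 were called with every gene with a count kept, 783 at a threshold of 0.01 and 1379 to 4292 with 1 library left out. Against 7 members lower, the numbers were 3 with a mean of at least 5 CPM (4 members remained testable), 1 at the threshold of 0.01, 6 with DESeq2 and 1 to 8 with 1 library left out. S100A4 was called with every gene with a count kept. No member was called higher under any alternative. Nothing in the labels ties replicate numbers to a batch or day. Deviations of same-numbered libraries correlated across 19159 genes (r = 0.44). The members' replicate ratios in both groups correlated likewise (r = 0.96, 9 genes of the same libraries). With the replicate number as a block, 7909 genes were called, with 8 members lower, S100A4 among them. ANXA2 was called under the block as well (log2 change -0.50, edgeR adjusted p 0.0166). Members under 10 counts in a library (S100A3, S100A14) are limited by depth.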
